A study of Mus musculus with 288 samples.

Results

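The 28 genes described here encode enzymes and regulators of cholesterol and fatty acid synthesis, and were chosen by name from the 54232 genes of the deposited single-cell count table. They comprise 18 enzymes that lead from acetyl-CoA to cholesterol, 6 enzymes of fatty acid synthesis, and 4 genes of regulation and transport. The transcriptomes come from scNMT-seq, a method that reads both RNA and DNA of each cell, of mouse embryonic stem cells of the line E14 (strain 129/Ola). Only the RNA is used here. D0 cells were taken from N2B27 medium with LIF and 2 inhibitors (2i + LIF), CHIR99021, which acts on glycogen synthase kinase, and PD0325901, which acts on MEK. D1 and D2 cells were taken 24 and 48 h after a change to serum + LIF, a medium that contains fetal bovine serum. All cells were sorted singly into plates and treated with the methylase M.CviPI before lysis. Of 96 wells under each label, 90 cells of D0, 50 of D1 and 93 of D2 passed the filter, with more than 200000 reads, more than 2000 detected genes and a mitochondrial share under 0.15. As far as the labels show, each label is 1 culture on 1 plate, so cells are not replicates, and no test, standard error or p-value is given. An SD below is a spread between cells.

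Cholesterol is built from acetyl-CoA through mevalonate, the isoprenoids, squalene and lanosterol. Fatty acids are built from the same acetyl-CoA through malonyl-CoA. The transcription factors SREBP1 and SREBP2, encoded by Srebf1 and Srebf2, activate both sets of genes when the sterol content of the endoplasmic reticulum is low. When sterol is plentiful, INSIG proteins hold the SREBPs and their escort SCAP in that membrane. Serum carries cholesterol in lipoproteins and fatty acids on albumin, so the change of medium also changes the supply of lipid from outside. The comparison of D1 and D2 with D0 addresses how the transcripts of both branches stood before and after that change.

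The libraries differed in ways that touch each comparison. Reads per passing cell ranged from 255040 to 10073010 in D0, 202157 to 43336922 in D1 and 491549 to 9812323 in D2. With each cell thinned to 200000 reads, D0 cells had a median of 7794 detected genes, D1 cells 8035 and D2 cells 3945. The median mitochondrial share of reads was 4.54%, 3.32% and 1.32%, and its part in the results was not tested. The D1 cells stood apart: Hprt, a purine salvage gene, had a read in 48 of 50 cells of D1 but in 9 of 90 cells of D0 and 7 of 93 cells of D2, and 4 Y-linked genes summed to 269 CPM in D1 against 22.9 and 5.21. Whether the D1 cells come from the same subline of E14 as the others was not tested. Each ratio of D1 to D0 or of D2 to D1 may therefore set different sublines side by side, and subline, plate, library, culture and time point cannot be told apart. The comparison of D2 with D0 does not use D1. Of 6 pluripotency markers, all had reads in each label, with summed levels per cell from 862 to 16087 CPM in D0, 1817 to 13861 in D1 and 3191 to 51598 in D2. Markers of primitive endoderm, trophectoderm and fibroblasts had mean summed levels of at most 8.66 CPM in any label. The summed S phase genes averaged 3339, 2613 and 3475 CPM in D0, D1 and D2, and the G2 and M phase genes 2532, 2186 and 2826.

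The windows below show where the SREBP core motif, searched as TCACNCCA on both strands, lay upstream of 3 of the genes, and are given because SREBPs bind such elements next to sites of NF-Y and Sp1. RefSeq promoter sequences (GRCm38.p6, 300 bases, from 250 before to 50 after the start site) were on hand for 22 of the 28 genes. In each window the motif is in capitals, and the sequence runs 5′ to 3′ on the gene's strand. Hmgcs1 is on the + strand (chr13:119690169-119690266), with the motif 137 bases before the start site. Msmo1 is on the - strand (chr8:64733703-64733800), with the motif 177 bases before it. Srebf2 is on the + strand (chr15:82147062-82147159), with the motif 162 bases before it. The start sites are those of RefSeq. The annotated gene span of Msmo1 used for its position begins farther upstream, so that its motif lies within that span.
Hmgcs1: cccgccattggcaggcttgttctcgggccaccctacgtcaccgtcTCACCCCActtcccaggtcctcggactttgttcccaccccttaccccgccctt
Msmo1: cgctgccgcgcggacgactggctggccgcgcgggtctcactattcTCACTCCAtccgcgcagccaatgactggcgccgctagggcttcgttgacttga
Srebf2: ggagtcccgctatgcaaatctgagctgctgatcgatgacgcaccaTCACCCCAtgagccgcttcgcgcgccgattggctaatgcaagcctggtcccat

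The SREBP core was found in 3 of 22 promoters of the pathway and in 4.97% of all genes with a promoter sequence of that length. The NF-Y motif CCAAT was more frequent, in 14 of 15 sterol enzyme promoters, 2 of 4 of fatty acid enzymes and 3 of 3 of regulation and transport, against 41.1% of all genes. The Sp1 motif GGGCGG was in 14 of 15, 1 of 4 and 3 of 3, against 38.2%. The E-box CACGTG was in 3 of 15, 0 of 4 and 1 of 3, against 8.09%. All motifs were searched on both strands, and a promoter can hold several of them. These are matches of letters within 300 bases, not measured sites of binding.

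Mean CPM values are given below in the order D0, D1 and D2, and log2 ratios against D0 in the order D1 and D2. In both serum labels the pathway as a whole stood lower than in D0. The 28 genes summed to 4652 ± 1664 CPM (mean ± SD over 90 cells) in D0, 2086 ± 1439.8 in D1 (n = 50) and 2415 ± 1439 in D2 (n = 93), where CPM is the gene's reads per 1000000 reads of the cell. Relative to D0, 12 of the 28 were lower by 2-fold or more in D1 and 14 in D2, and none was higher by that much in either. Change is given as the log2 ratio of mean CPM + 1. Among all 54232 genes, the 10256 with a mean of at least 5 CPM over the labels serve as the background, and all 28 genes are among them. Of that background, 28.5% were lower and 12.7% higher past 2-fold in D1, and 27.4% lower and 14.8% higher in D2. Below 0 on the log2 scale were 27 of the 28 in D1 (background 62%) and 24 in D2 (background 55%). The median log2 ratio of the 28 was -0.90 in D1 and -0.96 in D2, beside -0.35 and -0.17 for the background. Summing reads over cells, without TMM factors, changes the weight of cells but not the scaling. The background median was then -0.25 in D1 and -0.16 in D2. In that setting 8 of the 28 were lower and 1 higher past 2-fold in D1, beside 26.6% and 13.3%. For D2 the counts were 14 and 0, beside 29.3% and 17.98%. With TMM factors added to the summed reads, the background median was -0.04 in D1 and 0.12 in D2. The 28 genes then split into 7 lower and 2 higher past 2-fold in D1, and 10 lower and 2 higher in D2, beside 21.6% lower and 17.5% higher, and 23.9% and 24.7%, of the background. The higher ones with TMM on summed reads were Mvd and Fdft1 in D1, and Mvd and Lss in D2. By the median over cells, 19 of the 28 were lower past 2-fold in D1 and 26 in D2, beside 28.6% and 71.3% of the genes compared in that setting. With no filter on cells, 19 were lower and 1 higher in D1, beside 38.1% and 15.3%. In D2, 14 were lower and 0 higher, beside 27.3% and 15.9%. Of the genes past 2-fold in the main setting, none changed sign in any of the 15 settings tried, while some that were not, Mvd and Lss among them, did. Some of these settings could not change a sign, such as the 1.5-fold limit, which leaves every ratio as it is.

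Between genes, levels were compared per kilobase of merged exon. In D0 the highest means in CPM per kb were those of Scd2 (129), Acly (117), Insig1 (70.4) and Hmgcs1 (62.4). In D1 they were Acly (56.8), Acat2 (40.8), Fdft1 (37) and Pmvk (34), and in D2 Acly (105), Scd2 (42.9), Mvd (38) and Pmvk (37.7). Scd2 was number 1 of the 28 in D0, 14 in D1 and 2 in D2, and Scd1 was number 5, 20 and 21. Fdft1 was number 14, 3 and 14. Acaca was the lowest of the 28 in every label, at 3.85, 1.19 and 0.898 CPM per kb.

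**Figure D1:**
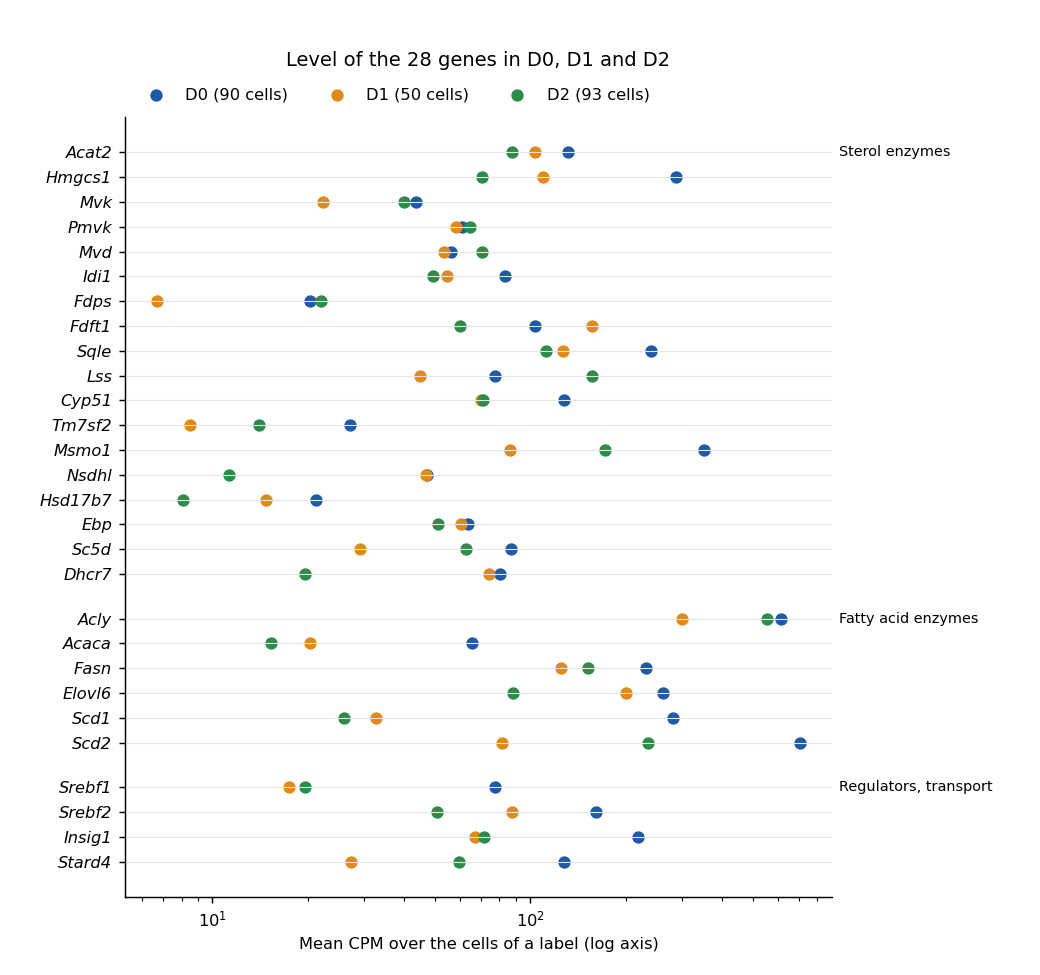
Mean CPM over the cells of each label (log axis) for the 28 genes, grouped into sterol enzymes, fatty acid enzymes, and regulators and transport. The D0 point lies to the right of both others for 23 of the 28 genes, with Fdft1 highest in D1 and Lss highest in D2.

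The summed branches stood at different distances from D0. Of the 18 sterol enzymes, 5 were lower past 2-fold in D1 and 6 in D2, shares close to the background of 28.5% and 27.4%, with median log2 ratios of -0.69 and -0.75. The D1 count was 5 to 8 with each cell left out in turn, 10 by the median over cells and 2 with reads summed over cells, with or without TMM. The background lower in D1 was 28.6% by the median, 26.6% with summed reads and 21.6% with TMM on them. The place of the count against the background therefore depends on these choices. Of the 6 fatty acid enzymes, 4 were lower past 2-fold in D1 and 4 in D2, with medians of -1.34 and -1.57. Summed over their genes, the sterol enzymes had a mean of 1909 ± 859.9 CPM per cell in D0, 1128 ± 955 in D1 and 1143 ± 836 in D2. The fatty acid enzymes summed to 2159 ± 845, 759 ± 461 and 1071 ± 882 CPM. The log2 ratio of the sums was -0.76 in D1 and -0.74 in D2 for the sterol branch, and -1.51 and -1.01 for the fatty acid branch. Without Scd1 and Scd2, set apart after their values were seen, the other 4 fatty acid enzymes summed to 1174, 645 and 810.2 CPM, with log2 ratios of -0.86 and -0.53, and Scd1 and Scd2 together had -3.10 and -1.92. Acly alone held 554 of those 810.2 CPM in D2.

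Single cells overlapped between labels in both branches. The summed sterol level exceeded the D0 median of 1780.0 CPM in 8 of 50 D1 cells and 16 of 93 D2 cells, and it lay below the lowest D0 cell (336 CPM) in 7 and 9. For the fatty acid branch, 0 of 50 D1 cells and 12 of 93 D2 cells exceeded the D0 median of 2078 CPM, and 11 and 19 lay below the lowest D0 cell (343 CPM). Cells of D2 were the more spread out, from 1.15 to 4516 CPM in the fatty acid branch, beside 66.9 to 1963 in D1. The coefficient of variation over cells was 0.451, 0.847 and 0.732 for the sterol sum and 0.391, 0.608 and 0.824 for the fatty acid sum. The sterol enzymes held 398051 reads in D0. Reads without molecular identifiers are not independent molecules.

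**Figure D2:**
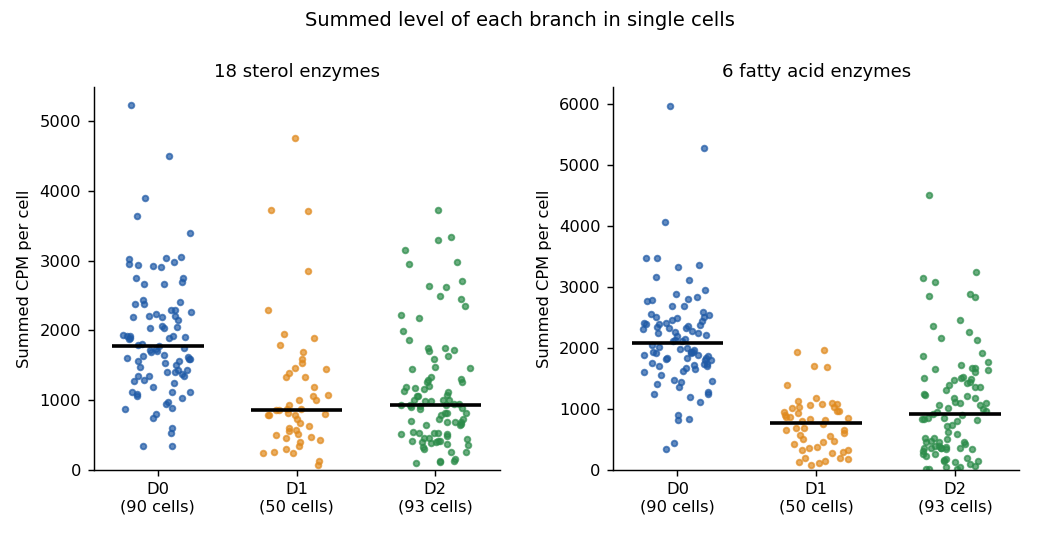
Summed CPM per cell of the 18 sterol enzymes and of the 6 fatty acid enzymes, by label, where each point is a cell and the line is the median. In the fatty acid panel all 50 D1 cells lie below the D0 median line, while the sterol panel and the D2 column overlap D0 more.

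Among the regulators, the SREBP genes and Insig1 were lower in both serum labels. Over single cells, the lowest, median and highest values of Srebf2 were 0, 146 and 623 CPM in D0, 7.89, 72.4 and 349 in D1 and 0, 2.1 and 1049 in D2. Srebf2 (chr15:82147181-82205379, + strand in GRCm38), which encodes the factor that acts mainly on sterol genes, had log2 ratios of -0.87 in D1 and -1.64 in D2. The lowest, median and highest cells held 0, 68.9 and 261 CPM of Srebf1 in D0, 0, 9.94 and 76.9 in D1 and 0, 0 and 1466 in D2. Srebf1 (chr11:60199089-60222581, - strand), whose product acts mainly on fatty acid genes, had log2 ratios of -2.09 and -1.93. A single D2 cell (plate well D7) held 1466 CPM of Srebf1, which was 80.6% of the summed CPM of all D2 cells, and without it the D2 ratio was -4.02. Insig1, a sterol-responsive member of the INSIG family, averaged 218, 67.2 and 71.4 CPM, with log2 ratios of -1.68 and -1.60. Stard4, a carrier of cholesterol between membranes, averaged 128, 27.4 and 59.8 CPM (-2.18 and -1.08 on the log2 scale). All 4 of these genes were lower past 2-fold in D2 and 3 in D1, where Srebf2 was the exception, beside 27.4% and 28.5% of the background.

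A list of 6 further regulators held Scap, Insig2, the proteases Mbtps1 and Mbtps2, and Nr1h2 and Nr1h3, which encode the oxysterol receptors LXR. Nr1h3 was below the 5 CPM limit of the background. Of the 6, 2 were lower past 2-fold in D1 and 1 in D2, with none higher, near or below the 28.5% and 27.4% of the background. Scap, the escort of the SREBPs, was low throughout, at 14.3, 12 and 19 CPM. The proteases that release SREBPs were lower in D1 and near D0 in D2: Mbtps1 averaged 167, 49.2 and 148 CPM, and Mbtps2 averaged 41.4, 14.5 and 52.6 CPM. Insig2 averaged 34.3, 27.2 and 3.74 CPM. The log2 ratio of Insig2 was -2.89 in D2, and in D1 it was -0.32.

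The first steps of the mevalonate path stood at different distances from D0. Acat2, which makes acetoacetyl-CoA in the cytosol, averaged 132, 104 and 87.7 CPM. Hmgcs1 (chr13:119690379-119708260, + strand), the HMG-CoA synthase that follows it, was far lower in serum. For Hmgcs1, the lowest, median and highest cells were at 0, 241 and 1024 CPM in D0, 0, 62.1 and 778 in D1 and 0, 0 and 819 in D2. Its means ± SD were 286 ± 198, 109.7 ± 141 and 70.5 ± 141 CPM, with log2 ratios of -1.38 and -2.01, and it had a read in 41 of 93 cells (44.1%, 33.8 to 54.8%) of D2 against 88 of 90 cells (97.8%, 92.2 to 99.7%) of D0, with exact Clopper-Pearson 95% intervals that cover the counting of cells of 1 culture only.

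Of the kinases and the decarboxylase that turn mevalonate into isopentenyl diphosphate, the means of Pmvk and Mvd stood near D0 in both labels. Their median cells in D2 did not, at 0.66 CPM of Pmvk against 46.3 in D0, and at 0 against 38.9 of Mvd. With reads summed over cells and TMM factors applied, Mvd was past 2-fold higher, at 1.02 in D1 and 1.21 in D2. That setting changes the weight of cells as well as the scaling. By the median over cells Mvd was at -5.32 in D2. Mvk averaged 43.8, 22.2 and 39.9 CPM, with a log2 ratio of -0.95 in D1, just short of 2-fold, and -0.13 in D2. Pmvk averaged 61.1, 58.3 and 64.6 CPM and Mvd 56.3, 53.6 and 70.6 CPM, with no log2 ratio against D0 larger than 0.32 in size. Idi1, the isomerase of the next step, averaged 83.2, 54.8 and 49.6 CPM (-0.59 and -0.73 on the log2 scale).

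Fdps, the farnesyl diphosphate synthase, averaged 20.3, 6.7 and 21.9 CPM, and its log2 ratio was -1.47 in D1 and 0.10 in D2. Its D1 value depends on how reads are shared with a copy. Gm3571, a processed pseudogene named here after its values were seen, shares 696 of its 1030 words of 31 bases with Fdps transcripts and was counted at 30.2, 24.1 and 36.4 CPM. With both summed, the ratio was -0.70 in D1 and 0.21 in D2, so that Fdps was no longer past 2-fold. The counts of Fdps are therefore uncertain.

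Fdft1 (chr14:63145150-63179578, - strand), the squalene synthase at the entry to sterols, was the 1 enzyme of the 18 above 0 in D1. Cells of D0 held a lowest, median and highest Fdft1 level of 0, 111 and 307 CPM, those of D1 0, 130.2 and 721, and those of D2 0, 0 and 951. The log2 ratio of Fdft1 was 0.59 in D1 and -0.77 in D2. Fdft1 shares exonic bases with Ctsb on the opposite strand, and the strand setting of the counting is not given in the sources used here. The same holds for Hmgcs1, Idi1, Cyp51, Srebf1 and Elovl6, which share exonic bases with genes on the opposite strand, so that their counts may hold reads of those genes. Sqle, the squalene epoxidase, averaged 239, 127 and 112 CPM (-0.91 and -1.09).

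Lss (chr10:76531588-76557138, + strand), which closes squalene epoxide to lanosterol, was the only sterol enzyme near 2-fold higher in D2. Over single cells, the lowest, median and highest values of Lss were 0, 48.7 and 432 CPM in D0, 0, 26.8 and 405 in D1 and 0, 0 and 2749.8 in D2. The log2 ratio was -0.78 in D1 and 1.00 in D2, where the value before rounding lies just under the limit. Few cells held these reads: 38 of 93 D2 cells had a read of Lss, and without the cell at 2749.8 CPM the ratio was 0.71. Leaving out any 1 of 77 D2 cells or of 29 D0 cells put it past 2-fold, up to 1.07. Reads of an antisense gene that overlaps Lss cannot be told apart without strand.

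From lanosterol on, the demethylation steps differed between days. The lowest, median and highest cells held 0, 299.9 and 1129 CPM of Msmo1 in D0, 0, 33.7 and 526 in D1 and 0, 2.86 and 1435 in D2. Msmo1 (chr8:64718139-64733792, - strand), the sterol methyl oxidase, had log2 ratios of -2.01 in D1 and -1.03 in D2. Nsdhl and Hsd17b7, which act with it on the same methyl groups, were lower past 2-fold in D2 but not in D1: Nsdhl averaged 47.2, 47.2 and 11.3 CPM (-1.97 on the log2 scale in D2, and even with D0 in D1), and Hsd17b7 averaged 21.1, 14.8 and 8.11 CPM (-0.49 and -1.28). Cyp51, the lanosterol demethylase, averaged 128, 70.1 and 71.1 CPM (-0.85 and -0.83). Tm7sf2, a sterol reductase, averaged 27, 8.48 and 14 CPM (-1.56 and -0.90), and shares exonic bases with Vps51 on its own strand.

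Of the last enzymes of the path, Ebp, the sterol isomerase, averaged 63.7, 60.7 and 51.4 CPM, and its means stayed within 2-fold. Its median cell held 48.6, 44.1 and 0 CPM. Sc5d, the desaturase that follows, averaged 87.2, 29 and 62.7 CPM (-1.55 and -0.47 on the log2 scale). Dhcr7, the final reductase, averaged 80.4, 74.1 and 19.6 CPM (-0.12 and -1.98). In D1, the cell in plate well B7 held 1565 CPM of Dhcr7, and without it the D1 ratio was -0.87, while the median over cells went from 63.9 CPM in D0 to 11.9 in D1 and 0 in D2.

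**Figure D3:**
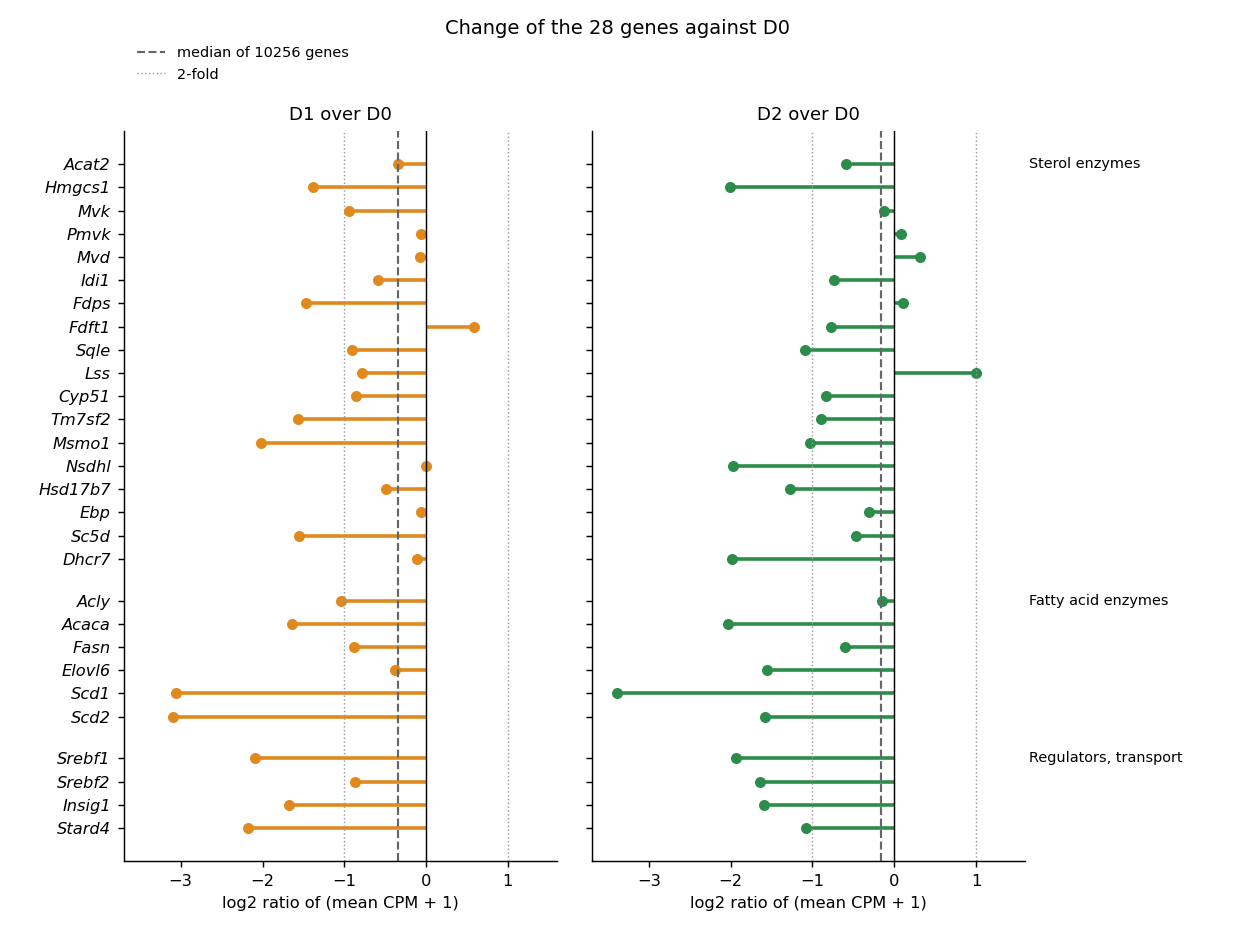
Log2 ratio of (mean CPM + 1) of the 28 genes in D1 over D0 (left) and D2 over D0 (right), where the dashed line is the median of all genes compared and the dotted lines mark 2-fold. Scd1 reaches -3.06 and -3.39, and the points of Hmgcs1, Acaca, Scd1, Scd2, Srebf1, Insig1, Stard4 and Msmo1 lie past the left dotted line in both panels.

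In the fatty acid branch Scd1 and Scd2 stood farthest from D0 in D1, and Scd1 and Acaca in D2. Scd1 (chr19:44394455-44407879, - strand) and Scd2 (chr19:44293674-44306864, + strand) encode stearoyl-CoA desaturases, which place the double bond of oleate, and lie on the same chromosome. For Scd1, the lowest, median and highest cells were at 0, 252 and 847 CPM in D0, 0, 14.9 and 193 in D1 and 0, 0 and 874 in D2. Scd1 had log2 ratios of -3.06 in D1 and -3.39 in D2, and 2.29% and 2.53% of the background genes had lower ones. The D2 cell with the most Scd1 held 36.2% of its summed CPM, and without it the D2 ratio was -3.99. Cells of D0 held a lowest, median and highest Scd2 level of 1.69, 695 and 2432 CPM, those of D1 0, 44.5 and 513, and those of D2 0, 34.5 and 2727. The median cell was far lower in D1 and D2, while the highest D2 cell exceeded every D0 cell. The log2 ratios of Scd2 were -3.10 and -1.58. Their transcripts share few words of 31 bases (253 of 4880 of Scd1), so that most of their reads can be told apart.

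Upstream of the desaturases, Acaca, the acetyl-CoA carboxylase that makes malonyl-CoA, averaged 65.8, 20.3 and 15.3 CPM (-1.65 and -2.03 on the log2 scale), and 12 of 93 D2 cells had a read of it. A processed pseudogene shares 31.7% of the 31-base words of Acaca. Over single cells, the lowest, median and highest values of Acly were 6.66, 546 and 2549 CPM in D0, 0, 226 and 946 in D1 and 0, 304 and 3880.4 in D2. Acly, the citrate lyase that supplies acetyl-CoA to both branches, had log2 ratios of -1.04 in D1 and -0.15 in D2. Fasn, the fatty acid synthase, averaged 231, 125 and 152 CPM (-0.88 and -0.60). Elovl6, which extends palmitate to stearate, averaged 261, 199.7 and 88.5 CPM, and was past 2-fold in D2 (-1.55) but not in D1 (-0.39).

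Other genes of lipid metabolism were read from lists made beside that of the 28. Of 13 further genes of synthesis, 7 were lower and 0 higher past 2-fold in D1, and 7 lower and 1 higher in D2. The background had 28.5% lower and 12.7% higher in D1, and 27.4% lower and 14.8% higher in D2. The higher gene was Slc25a1, the mitochondrial citrate carrier, at 177, 84.2 and 416 CPM. Acss2, which activates acetate, averaged 21.7, 3.74 and 0.524 CPM, and Acsl3, a fatty acyl-CoA synthetase, 103, 18.5 and 30.9 CPM. Of 12 genes of uptake, efflux and storage, 7 were lower and 1 higher in D1, and 9 lower and 1 higher in D2, and 10 of them are in the background. Without the other 2, which were below its 5 CPM limit, 6 were lower in D1 and 8 in D2. Abca1 and Abcg1, the cholesterol exporters that sterol-activated LXR receptors induce, were lower, at 44.2, 3.8 and 7.24 CPM and at 36.3, 1.63 and 0.0904 CPM. Abca1 had a read in 4 of 93 D2 cells, and leaving out 1 of them moved its D2 ratio from -2.46 to -3.28. Of 8 genes of fatty acid oxidation, 3 were lower in D1 with 0 higher, and 3 were lower and 3 higher in D2. The share lower is near that of the background. The higher genes were Cpt2 (log2 ratio 1.44), Hadhb (1.11) and Acadvl, which averaged 14.9, 25.8 and 32 CPM. The highest D2 cell held 1780 CPM of Hadhb and, for Acadvl, 309 CPM. Without its highest cell, either of these genes fell inside 2-fold. Cpt2 had a read in 14 of 93 D2 cells. Cpt1a, which admits fatty acids to mitochondria, averaged 130.4, 8.32 and 19.2 CPM. In D2, 11 cells had a read of Cpt1a, and leaving out 1 cell moved its D2 ratio from -2.70 to -3.90.

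Between the serum labels the 28 genes had no common direction. In D2 over D1, 4 were lower and 5 higher past 2-fold, beside 18.3% and 20.5% of the background, and 13 were below 0 (background 46.9%). The lower ones were Nsdhl (-1.97 on the log2 scale), Dhcr7 (-1.86), Fdft1 (-1.36) and Elovl6 (-1.17). The higher ones were Lss (1.78), Fdps (1.58), Scd2 (1.52), Stard4 (1.10) and Sc5d (1.09). With Gm3571 summed, Fdps had 0.90 and was no longer past 2-fold. Leaving out 1 cell put Sc5d at 0.88 and Stard4 at 0.91, moved Dhcr7 to -1.11, and moved Srebf1 from 0.15 to -1.93. D1 and D2 also differ in plate and in the genes that set D1 apart, and the part of these in the values was not tested.

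A lower mean can come from fewer cells with a read or from fewer reads in those cells, and the labels differed in this. With every cell thinned to 200000 reads, all 28 genes had a read in a smaller share of cells in D2 than in D0, as did 90.9% of the background, so this was shared with nearly all genes. In D1, 21 of the 28 had a smaller share, beside 45.2% of the background. Over the sterol enzymes the median share with a read was 87.2% for D0 cells, 78% for D1 cells and 38.7% for D2 cells, and over the fatty acid enzymes it was 97.8%, 80% and 44.1%. A cell had reads of a median of 16 of the 18 sterol enzymes in D0, 14 in D1 and 6 in D2.

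Within the cells that had a read, most background genes had a higher mean in D2 than in D0 (83.7%, median log2 ratio 1.02), and 20 of the 28 genes did (median 0.28). The other 8 were lower even in the cells that held their reads. They were Scd1, Scd2, Hmgcs1, Elovl6, Srebf2, Sqle, Insig1 and Msmo1. In D2 cells with a read, Scd1 averaged 158 CPM against 284 in D0, Scd2 392 against 704, and Hmgcs1 168 against 298. Lss went the other way, with 518 against 93.7 CPM in 30.1% and 83.3% of cells. In D1 the level in cells with a read was higher than in D0 for 4 of the 28 genes, beside 31.5% of the background. In cells of more than 5000 detected genes alone (87 of D0, 49 of D1 and 36 of D2), an alternative added after the data were seen, 15 of the 28 genes were lower past 2-fold in D2 and 0 higher, with a median log2 ratio of -1.15, beside 28.7% of the background lower.

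Coordination between cells was read as Spearman's rho of CPM for each pair of enzymes that was detected in 50% or more of a label's cells. Cells of a label share a plate, and depth differs between them, so rho is a description over cells. All 18 sterol enzymes passed this limit in D0 and D1, but 6 did in D2. In D0, 147 of 153 sterol pairs had rho above 0, with a median of 0.21 (n = 90 cells). The background of all gene pairs with the same limit was 61% above 0, with a median of 0.0335. In D1, 151 of 153 sterol pairs were above 0, with a median of 0.35 (n = 50 cells), beside 63% and 0.06. In D2, 11 of 15 pairs were above 0, with a median of 0.068 (n = 93 cells), beside 56% and 0.017. With a limit of 25% of cells, 69 of 91 D2 pairs were above 0, with a median of 0.10.

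Among pairs of sterol enzymes, the highest rho values were those of Pmvk with Mvd (0.54) and Mvd with Fdft1 (0.47) in D0, and Hmgcs1 with Sqle (0.72) and Hmgcs1 with Idi1 (0.70) in D1. Against the sum of the other sterol enzymes, Msmo1 had a rho of 0.58 in D0 and 0.73 in D1, Hmgcs1 0.50 and 0.72, and Sqle 0.47 and 0.68. Ebp was the lowest of the sterol enzymes in both, at 0.16 and 0.05. Mvk (0.18), Hsd17b7 (0.21) and Sc5d (0.22) were close to it in D0, and Hsd17b7 was at 0.22 in D1. Of the genes outside the sterol list, Scd2 (0.55), Fasn (0.52), Scd1 (0.49) and Insig1 (0.46) had such rho values to the sterol sum in D0. The others were lower there, at 0.36 for Srebf2, 0.26 for Srebf1, 0.25 for Stard4, 0.24 for Elovl6, 0.21 for Acly and 0.08 for Acaca. In D1 the values of these genes ran from 0.32 for Stard4 to 0.72 for Elovl6, with 0.66 for Insig1.

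**Figure D4:**
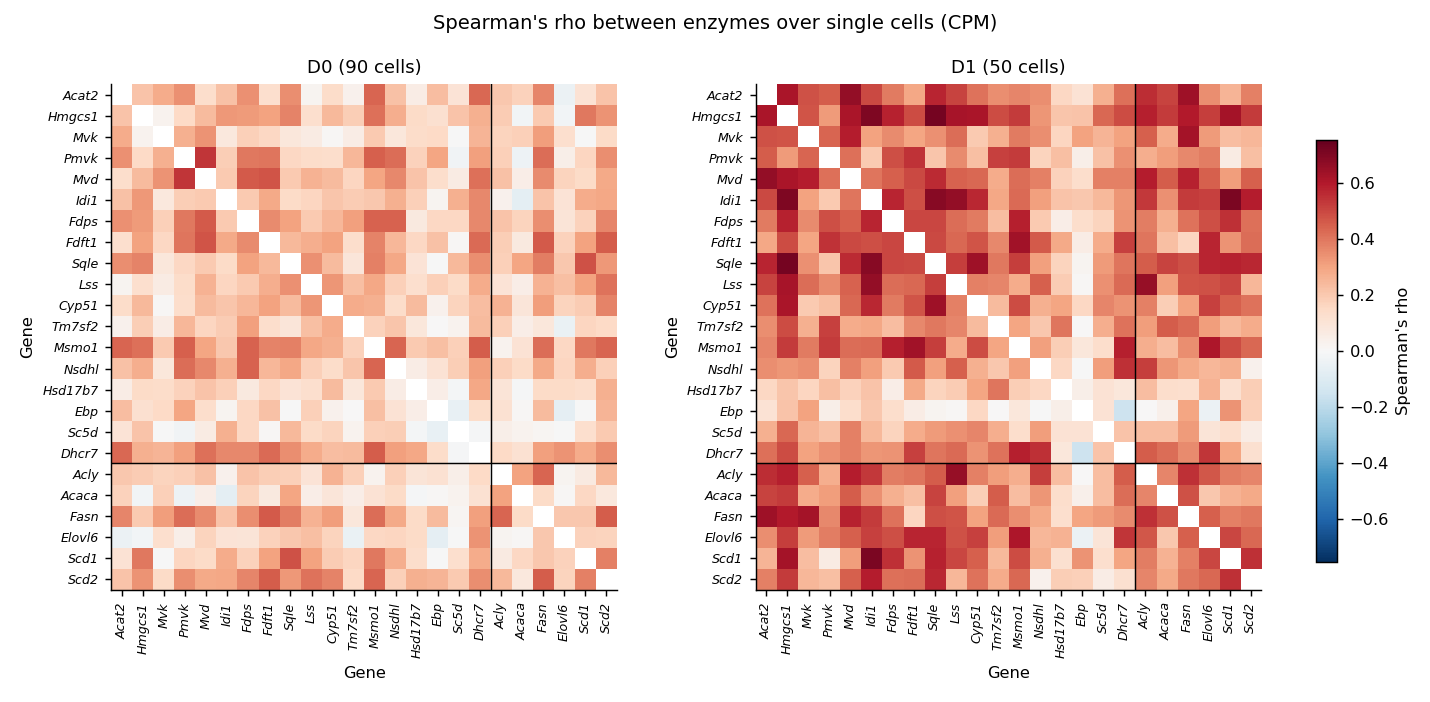
Spearman's rho over cells of the CPM of each pair of the 24 enzymes in D0 (90 cells) and D1 (50 cells), where red is above 0, blue below 0, and lines part the sterol from the fatty acid enzymes. Red fills both blocks and the strip between them, paler in D0, and the row of Ebp in D1 is mixed.

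The levels of the branches rose together between cells in D0 and D1. Pairs of 1 sterol and 1 fatty acid enzyme had rho above 0 in 97 of 108 cases in D0 (median 0.18), 107 of 108 in D1 (median 0.37) and 15 of 24 in D2 (median 0.032). Pairs within the fatty acid branch had 15 of 15, 15 of 15 and 3 of 6, with medians of 0.17, 0.40 and 0.0126. Of all gene pairs with the same limit, 61% were above 0 in D0, 63% in D1 and 56% in D2. The D2 shares of 62.5% across the branches and 50% within the fatty acid branch were near that background. The summed levels of the branches had a rho of 0.66 over D0 cells, 0.72 over D1 cells and 0.0978 over D2 cells. The fatty acid sum also had a rho of -0.67 with the summed ribosomal protein genes and 0.63 with the S phase genes in D1, beside -0.06 and 0.09 in D0. Neither measure was held for the rho between the branches, and their part in it was not tested. In D2 cells of more than 5000 detected genes, 54 of 66 sterol pairs were above 0, with a median of 0.15. With the number of detected genes held in all D2 cells, 11 of 15 were, with a median of 0.066.

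**Figure D5:**
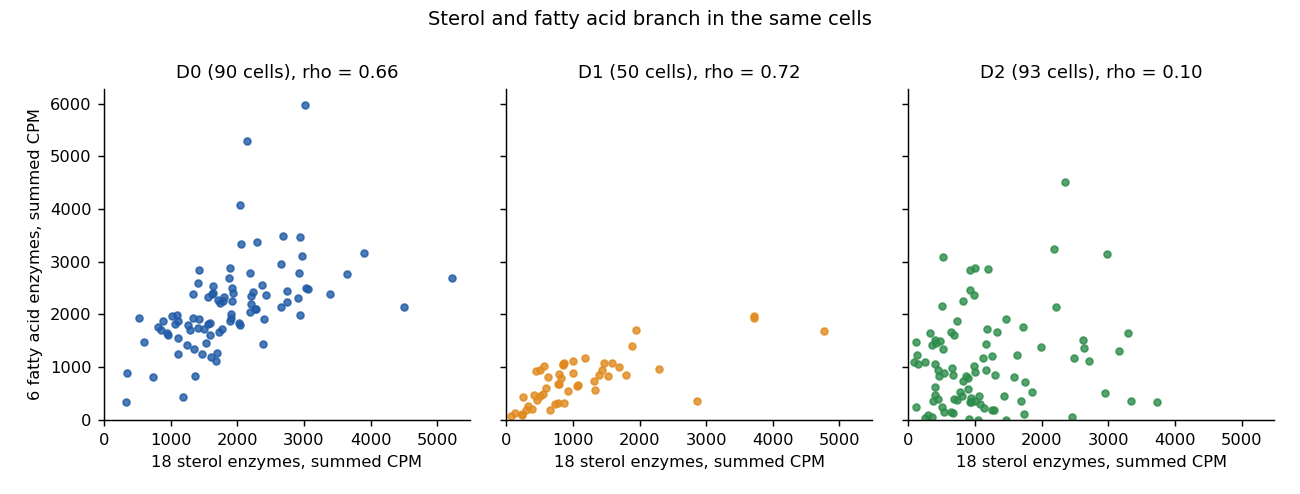
Summed CPM of the 18 sterol enzymes (horizontal) against that of the 6 fatty acid enzymes (vertical) in each cell, 1 panel per label, with Spearman's rho in the title. The value is 0.66 in D0, 0.72 in D1 and 0.0978 in D2, where the points scatter without a common band.

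Other measures moved with the sterol sum between cells. Its rho with the summed ribosomal protein genes was -0.14 in D0 and -0.66 in D1, and its rho with the number of detected genes was 0.25 and 0.31. With the ribosomal protein share held, an alternative added after the data were seen, 148 of 153 sterol pairs were above 0 in D1, with a median of 0.25. With the number of detected genes held, 152 were, with a median of 0.26. Of the regulators, Srebf2 had a rho with the sterol sum of 0.36 in D0 and 0.53 in D1. For the S phase genes the rho was 0.19 in D0 and 0.43 in D1, and for Nanog it was 0.0917 and -0.0341.

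Outside the lipid lists, and among genes with an established symbol, those whose CPM followed the sterol sum most closely differed by label. The numbers of genes compared and their medians include genes without such a symbol. In D0 they were Rasgrp2 (0.48), Nmnat2 (0.45), Bcam (0.44), Llgl1 (0.44) and Pkm (0.41), of 8693 genes compared, with a median rho of 0.0574. In D1 the first were Hspa4 (0.65), Etv5 (0.65), Cpsf6 (0.64) and Jade1 (0.63), of 9811 genes with a median of 0.093. In D2 the highest rho among these genes was 0.32, that of Pnkd, followed by Pafah1b2, Cenpm, Ahcy and Gmnn.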

How the data were processed

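The deposited table holds read counts per gene for 288 wells, which the authors made from polyA RNA of scNMT-seq and aligned with HISAT2 to GRCm38, per the submitters' processing notes. The counting tool, its annotation and its strand setting are not given in the sources used here. Counts were not normalized by the authors. Passing cells followed the study's limits on reads and genes, with 0.15 taken as a fraction of mitochondrial reads, and 233 of 288 wells passed, more cells than the study states. The submitters' labels gave the groups. Counts were scaled to CPM by the total of each cell, averaged over cells with equal weight, and compared as log2 of (mean CPM + 1) with a 2-fold limit. Reads per cell had a median of 1610758 in D0, 7956162 in D1 and 2162090 in D2. No count model was run because each label is 1 culture. The scripts (Python 3.11.15, numpy 2.4.6, pandas 2.3.3, scipy 1.17.1, and R 4.3.3 with edgeR 4.0.16 for TMM factors alone) were tested on simulated data. The 28 genes and all lists were chosen with earlier results of these data known. Beyond the 28, genes were named from the lists of lipid, marker and cell cycle genes. In each label the 5 genes with an established symbol and the highest rho to the sterol sum, outside the lipid lists, were named too. Some genes that these rules name are not reported here. Alternatives covered cell filters, weights, pseudocount, scaling, depth, plate side and single cells. Methylation files were not used here.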

Additional observations from a re-analysis of the deposited data

How the results depend on the processing

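No paired analysis was possible because no test was made and the wells share only plate positions. Of 163 comparisons of 11 counts with their alternatives, 136 stayed within 1.5 times the main count, and 27 did not. Some of the 136 could not have moved. Leaving out D1 cells without an Hprt read cannot change a D2 over D0 count, and summing Fdps with its copy cannot change a fatty acid count. Shares in brackets are those of all genes compared in the same setting and direction. The sterol enzymes lower past 2-fold in D1 were 5 in the main setting. They were 11 with no filter on cells (38.1%), 10 by the median over cells (28.6%) and 10 at a 1.5-fold limit (41.8%). They were 2 with reads summed over cells (26.6%), and 2 with TMM (21.6%) or median-of-ratios factors (24.0%), both applied to summed reads. With each cell left out they were 5 to 8. For D2 (6) the count was 17 by the median (71.3%), 10 at 1.5-fold (37.9%) and 3 with TMM (23.9%). The sterol enzymes higher past 2-fold (0) became 1 in D1 with no filter (15.3%), summed reads (13.3%), median-of-ratios factors (15.1%) or the 1.5-fold limit (20.7%). They became 2 there with TMM (17.5%). In D2 they became 2 with TMM (24.7%) or median-of-ratios factors (23.5%). They became 1 with totals without the 100 most abundant genes (16.9%), in plate columns 1 to 6 (15.7%) or at 1.5-fold (26.5%). With each cell left out they were 0 to 1. The fatty acid enzymes lower in D1 (4) were 2 with TMM (21.6%). The cause of these differences was not tested. Sterol pairs above 0 in D2 (11 of 15) were 2 of 3 in thinned cells, 69 of 91 at the 25% limit, 4 of 6 in plate columns 1 to 6, 22 of 28 in columns 7 to 12 and 54 of 66 in cells with over 5000 genes, where fewer or more enzymes passed the limit. That last setting, the sum of Fdps with its copy and the ribosomal protein share held were chosen after seeing the data. Leaving out 1 cell put Sqle, Lss and Mvk past 2-fold lower in D1 and Fdft1, Cyp51 and Tm7sf2 in D2, put Lss past 2-fold higher in D2, and ended the call of Acly in D1 and Msmo1 in D2. Lower past 2-fold in all 15 settings were Msmo1, Sc5d, Scd1, Scd2, Srebf1, Insig1 and Stard4 in D1, and Hmgcs1, Dhcr7, Acaca, Scd1, Scd2 and Srebf2 in D2. Not all of the 15 could move these ratios. The 1.5-fold limit left every ratio as it was, and summing Fdps with its copy changed Fdps alone. Leaving out D1 cells without an Hprt read could not touch D2 over D0. With 1 culture per label, the spread between cultures is unknown.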
